A study of Mus musculus with 2 samples.

Results

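The 103 genes described here encode the respiratory chain and ATP synthase, the enzymes of the inner mitochondrial membrane that carry out oxidative phosphorylation. They are the rows of the deposited expression table whose symbols start with mt-Nd, mt-Co, mt-Cytb, mt-Atp, Nduf, Uqcr or Atp5, or with Cox followed by a digit from 4 to 8, together with Sdha, Sdhb, Sdhc, Sdhd and Cyc1, out of 19837 genes in all. Symbols of pseudogenes were left out. The rule uses symbols only and no measured value, though it was set with earlier results of these data known. The mitochondrial genome encodes 13 of them and the nuclear genome 90. The nuclear genes comprise 77 subunits of complexes I to V, 9 assembly or coupling factors (Ndufaf1 to Ndufaf8 and Atp5s) and 4 tissue-restricted isoforms of complex IV. Of the 77, 37 belong by symbol to complex I, 4 to complex II, 9 to complex III, 11 to complex IV and 16 to complex V. Ndufa4 is counted with complex I by its symbol, although its protein is known as a complex IV subunit.

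The cells came from the spleens of female C57/BL6N mice that received saline or remimazolam at 6 mg/kg. Remimazolam is a short-acting benzodiazepine that acts on the GABA(A) receptor. Spleens were taken 4 h or 8 h after the drug, and the labels put saline at 0 h, so no saline group was matched to the later times. Each treatment had 3 mice, whose cells were pooled under 1 sample tag, and the 3 tagged pools went through a single BD Rhapsody capture, a droplet-free method in which cells settle into microwells with barcoded beads. No animals can be told apart within a pool, so no comparison below carries a p-value. The labels describe the sort both as CD45+CD3+CD5+ cells and as CD45+ cells. After filtering, 15621 T cells remained, 5130 from saline, 5244 from 4 h and 5247 from 8 h, with 13979891, 14315946 and 14283876 molecules. Median depth was 2535.5, 2514 and 2516 molecules per cell. All 5 defining T cell markers were present (Cd3e at 749, 770 and 747 molecules per 1000000 molecules of the pool, written CPM). The 4 neutrophil markers summed to 0.787 to 2.10 CPM. Cells with at least 10 molecules of these 4 genes had been removed beforehand, so a low sum was set by that filter. The 7 B cell markers summed to 358, 356 and 339 CPM, of which Ighm gave 319, 322 and 317. The 7 natural killer markers summed to 153, 175 and 161 CPM and the 7 myeloid markers to 104, 121 and 110, of which Cst3 gave 80.9, 86.2 and 80.4. The part of RNA from such cells in the results was not tested.

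Complexes I to IV pass electrons from NADH and succinate to oxygen and pump protons, except complex II, which pumps none. Complex V uses the proton gradient to make ATP. Complexes I, III, IV and V combine subunits from both genomes, whereas all complex II subunits are nuclear. Mitochondrial genes are transcribed as long polycistronic RNAs from both strands and cut into single messengers. Resting T cells depend largely on oxidative phosphorylation, and activated, dividing T cells are known to expand their mitochondria as well as glycolysis.

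Sequences are shown for the places where the genes touch or where family members differ. On the mitochondrial chromosome of GRCm38, mt-Atp8 (7766 to 7969) and mt-Atp6 (7927 to 8607), both on the plus strand, share 43 bases, so a read lying wholly in that stretch belongs to both genes. The shared stretch opens the mt-Atp6 reading frame and closes that of mt-Atp8:
mt-Atp8 and mt-Atp6, chrM:7927-7969, plus strand: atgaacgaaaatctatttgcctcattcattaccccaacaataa
The genes mt-Nd4l and mt-Nd4 share 7 bases, mt-Atp6 and mt-Co3 share 1, and mt-Nd5 and the only minus-strand gene here, mt-Nd6, overlap by 14. The 3 nuclear genes Atp5g1, Atp5g2 and Atp5g3 encode the same mature subunit c, which forms the rotating ring of ATP synthase. Their shares of the family differed between T cell subsets, as described further on. Their promoters are given as the 250 bases before the annotated start (RefSeq, GRCm38.p6, all on the minus strand and printed 5′ to 3′ along the gene), with matches to CCAAT and to the NRF1 core GCGCATGCG on either strand in capitals:
Atp5g1, chr11:96075632-96075881: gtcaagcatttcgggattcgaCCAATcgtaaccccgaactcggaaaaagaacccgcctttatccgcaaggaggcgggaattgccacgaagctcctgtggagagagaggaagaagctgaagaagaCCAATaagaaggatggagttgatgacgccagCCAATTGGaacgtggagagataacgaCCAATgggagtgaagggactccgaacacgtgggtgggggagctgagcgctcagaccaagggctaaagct
Atp5g2, chr15:102671048-102671297: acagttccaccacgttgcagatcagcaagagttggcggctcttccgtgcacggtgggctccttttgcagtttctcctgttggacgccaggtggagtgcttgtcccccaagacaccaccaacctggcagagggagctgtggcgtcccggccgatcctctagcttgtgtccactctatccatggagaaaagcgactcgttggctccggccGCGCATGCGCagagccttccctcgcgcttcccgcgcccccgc
Atp5g3, chr2:73911327-73911576: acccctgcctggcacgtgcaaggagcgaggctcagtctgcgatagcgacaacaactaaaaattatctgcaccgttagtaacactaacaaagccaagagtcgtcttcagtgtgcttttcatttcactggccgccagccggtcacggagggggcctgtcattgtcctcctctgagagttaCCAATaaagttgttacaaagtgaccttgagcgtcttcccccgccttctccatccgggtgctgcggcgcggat
The Atp5g1 window held 5 CCAAT matches, of which a pair overlapped on opposite strands, and the Atp5g3 window held 1. The Atp5g2 window held none, but carried the NRF1 core in both orientations, overlapping by all but 1 base.

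RefSeq promoters of 300 bases, 250 before and 50 after the start, were found for 74 of the 90 nuclear genes and were searched on both strands. NRF1 is a transcription factor known for its sites at nuclear respiratory genes. Its core GCGCATGCG was in 10 of the 74 promoters (13.5%), against 1.95% of 27025 genes with a promoter entry. The YY1 core AAGATGGCG was in 8 (10.8%, against 1.64%). The ETS core CCGGAAGT, the kind of site that GABPA binds, was in 5 (6.76%, against 4.31%), and CCAAT in 33 (44.6%, against 41.1%). Letters in a window are a description and do not show binding. A few NRF1 matches are shown because the genes appear in the results below, with the core, in either orientation along the gene, in capitals:
Uqcr11, chr10:80406808-80406836, minus strand: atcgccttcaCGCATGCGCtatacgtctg
Ndufaf4, chr4:24897960-24897988, plus strand: ccagatgtctGCGCATGCGcctgtgcgga
Ndufa11, chr17:56717692-56717720, plus strand: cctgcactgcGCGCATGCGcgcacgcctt
Ndufa8, chr2:36049329-36049357, minus strand: tcgctggagaCGCATGCGCagatggtacc
The genes with the NRF1 core were Atp5g2, Atp5k, Atp5l, Cox6a1, Ndufa8, Ndufa11, Ndufaf4, Ndufaf5, Uqcr11 and Uqcrc1.

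The first question was how much of a splenic T cell's RNA the respiratory chain takes up, and whether the drug groups differed from saline. The 13 mitochondrial genes held 9.82% of T cell molecules in saline, 9.77% at 4 h and 9.99% at 8 h. The 90 nuclear genes together held 1.092%, 1.105% and 1.107%. The ratio of mitochondrial to nuclear molecules was 8.99, 8.84 and 9.03. The 8 h pool was the highest and the 4 h pool the lowest for the mitochondrial genes.

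Relative to saline, the mitochondrial sum was 0.995-fold at 4 h, with a 95% interval of 0.993 to 0.997, and 1.018-fold at 8 h, with one of 1.015 to 1.020. The nuclear sum was 1.012-fold (1.005 to 1.019) and 1.013-fold (1.006 to 1.021). These intervals are exact conditional-binomial ones that cover counting error only, since molecules of 1 pool come from the same 3 mice. They treat molecules as independent draws and leave out the spread between cells, whose mitochondrial share in saline had quartiles of 8.75% and 10.97%. The interval of the mitochondrial sum lay below 1 at 4 h and above 1 at 8 h. It is too narrow to show that the pools differ beyond the spread of cells. Whether mice given the same treatment differ by as much was not measured. The pools were also scaled by TMM factors, which come from a trimmed and weighted mean of gene ratios, in place of total molecules. That put both sums below saline at 4 h, the mitochondrial one at 0.980 and the nuclear one at 0.997.

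**Figure D1:**
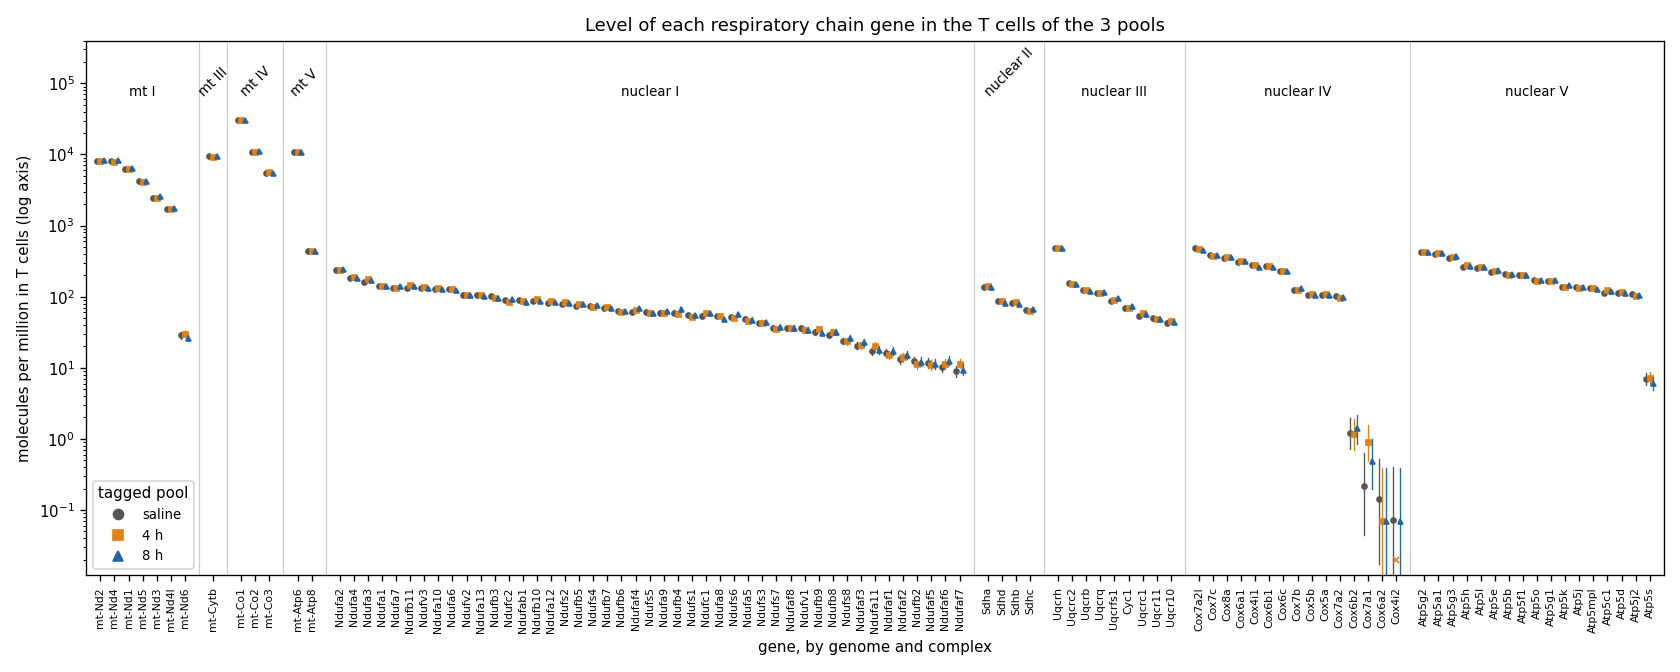
Level of each of the 103 genes in T cells, in CPM on a log axis, with genes ordered by level within each genome and complex. Points are the 3 pools, vertical bars are exact Poisson 95% intervals, and a cross marks 0 molecules. The 3 points of a gene nearly coincide above 10 CPM, and the 4 tissue-restricted isoforms of complex IV lie near the bottom.

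Among the mitochondrial genes, mt-Co1, the catalytic core of complex IV, gave the most molecules, 421555 in saline, 430576 at 4 h and 435254 at 8 h. These correspond to 30154, 30077 and 30472 CPM. Its ratio to saline was 0.997 and 1.011. The complex IV core subunits mt-Co2 and mt-Co3 stood at 0.996 and 1.013 at 4 h and at 1.017 and 1.008 at 8 h. The mt-Cytb gene, which encodes the cytochrome b of complex III, was at 9424, 9290 and 9647 CPM, or 0.986-fold and 1.024-fold. Both complex V genes, mt-Atp6 and mt-Atp8, which form part of the membrane sector, lay between 1.003 and 1.012 at both times.

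The 7 complex I genes of the mitochondrial genome encode membrane-arm subunits. Summed, they held 3.10%, 3.06% and 3.19% of molecules, 0.987-fold (0.983 to 0.992) at 4 h and 1.030-fold at 8 h (1.025 to 1.034). That was the highest 8 h ratio of the mitochondrial sums. The highest single value was that of mt-Nd3 at 8 h, with 2435, 2423 and 2588 CPM and a ratio of 1.063 (1.047 to 1.079). At 8 h, mt-Nd2 and mt-Nd4l both stood at 1.034, mt-Nd4 at 1.030, mt-Nd1 at 1.029 and mt-Nd5 at 1.001. At 4 h, mt-Nd5 was the lowest at 0.970, followed by mt-Nd4l at 0.974, with mt-Nd4, mt-Nd2, mt-Nd3 and mt-Nd1 at 0.988, 0.989, 0.995 and 0.996. The minus-strand gene mt-Nd6 was rare, with 398, 424 and 377 molecules, and its ratios of 1.04 (0.905 to 1.196) and 0.927 (0.803 to 1.07) had intervals that reached both sides of 1. Across the 13 genes, 4 were above 1 at 4 h and 12 at 8 h, mt-Nd6 being the exception at 8 h. Of all 10015 genes with at least 100 molecules over the 3 pools, 5560 were above 1 at 4 h and 4976 at 8 h.

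Among nuclear genes, the sums by complex, assembly factors and isoforms included, also lay close to saline. At 4 h the ratios were 1.016 for complex I, 1.0103 for complex II, 1.008 for complex III, 1.007 for complex IV and 1.013 for complex V. At 8 h they were 1.017, 0.989, 1.015, 0.999 and 1.024. Only the intervals of complexes I and V excluded 1, at both times, and complex II had the widest, 0.951 to 1.028 at 8 h. These intervals too leave out the spread between cells and mice. Under TMM scaling the 4 h sums of complexes II, III, IV and V turned below 1, to 0.995, 0.994, 0.992 and 0.998. That of mitochondrial complex V turned to 0.993.

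A gene was called different when its level differed at least 1.2-fold from saline, and only genes with at least 100 molecules over the 3 pools were counted, 99 of the 103 members. Of all 10015 such genes, 11.2% were past that fold at 4 h and 10.4% at 8 h. None of the 77 nuclear subunits and none of the 13 mitochondrial genes was past it at either time. Because most members are abundant and counting noise is smaller in abundant genes, the comparison was repeated at a minimum of 1000 molecules. There, 0 of 90 members were past the fold, beside 1.89% of 5868 genes at 4 h and 1.04% at 8 h. Members with that many molecules spanned 0.931 to 1.1004 at 4 h and 0.914 to 1.14 at 8 h. The median log2 ratio of the 77 nuclear subunits was 0.008 at 4 h and 0.015 at 8 h, beside 0.015 and -0.001 over all 10015 genes.

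**Figure D2:**
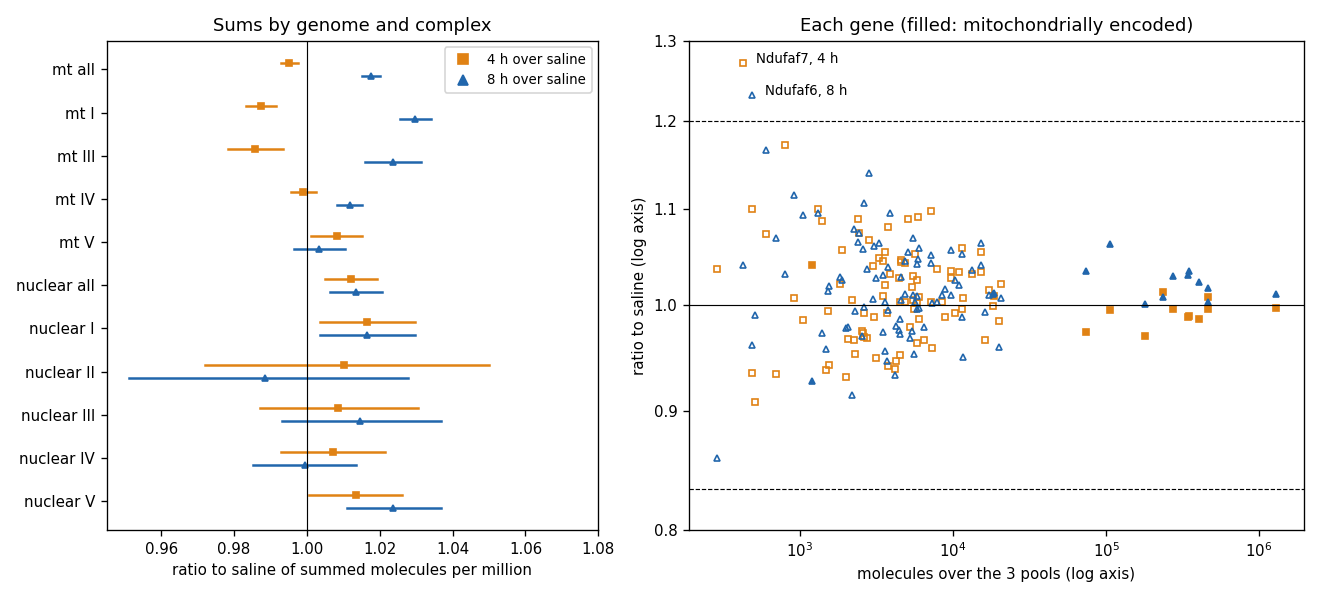
Left, ratio to saline of the summed CPM of each genome and complex at 4 h and 8 h, with 95% counting intervals, where every sum lies between 0.986 and 1.030. Right, ratio to saline of each gene against its molecules over the 3 pools, both on log axes, with dashed lines at a fold of 1.2 either way. The spread narrows with the number of molecules, and only Ndufaf7 at 4 h and Ndufaf6 at 8 h lie outside the lines.

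In complex I, the nuclear genes with most molecules were Ndufa2, Ndufa4 and Ndufa3. Ndufa2, a matrix-side accessory subunit, stood at 241, 239 and 247 CPM. Ndufa3, an accessory subunit, was at 161, 177 and 169, or 1.098-fold (1.037 to 1.162) at 4 h and 1.05-fold at 8 h, with saline the lowest pool. The highest 4 h ratio belonged to Ndufa11 (244, 293 and 257 molecules, 1.173-fold, interval 0.986 to 1.396) and the lowest to Ndufb2 (172, 160 and 174 molecules, 0.908-fold, 0.728 to 1.133). Both are accessory subunits with few molecules, and both intervals contain 1. At 8 h the span ran from Ndufa8 at 0.914 (0.823 to 1.015), which had 744, 766 and 695 molecules, to Ndufb4 at 1.106 (1.007 to 1.216) among the subunits. Ndufb4 stood at 59.7, 57.8 and 66.1 CPM.

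The assembly factors of complex I gave the few calls. Ndufaf7, a methyltransferase that modifies a core subunit, had 126, 164 and 134 molecules, 1.27-fold at 4 h (1.002 to 1.616) and 1.04-fold at 8 h. Ndufaf6 had 143, 161 and 180 molecules, 1.0995-fold at 4 h and 1.23-fold at 8 h (0.984 to 1.545). Ndufaf4, with 862, 942 and 1004 molecules, reached 1.14-fold at 8 h, with an interval that starts at 1.04, and was the highest of the complex I genes with over 1000 molecules. In the comparison of 8 h with 4 h, where 10.2% of all genes were past the fold, Ndufaf7 (0.819-fold) and Atp5s (0.829-fold), a factor that couples the sectors of ATP synthase, were the members past it. Atp5s had only 98, 104 and 86 molecules. With 1 call among 99 members at each time against saline, the members' share was below that of all genes, which include many with fewer molecules. At a minimum of 1000 molecules, 0 of 90 members stood beside 1.89% of genes at 4 h and 1.04% at 8 h. The lower share is therefore not read as a trait of the members.

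Succinate dehydrogenase, complex II, also serves the citric acid cycle. Its flavoprotein Sdha stood at 136, 139 and 135 CPM, the iron-sulfur protein Sdhb at 82.0, 82.8 and 79.9, and the membrane anchors Sdhd and Sdhc at 85.8, 87.5 and 81.9 and at 64.6, 62.5 and 66.9. At 4 h Sdha was the highest at 1.025-fold and Sdhc the lowest at 0.968-fold, and at 8 h Sdhc was the highest at 1.036-fold and Sdhd the lowest at 0.955-fold. All these intervals contain 1.

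In complex III, Uqcrh, the hinge protein that contacts cytochrome c, gave most molecules, at 476, 487 and 480 CPM. The core protein gene Uqcrc2 was at 154, 149 and 151, the lowest complex III ratio at 4 h (0.966-fold). Uqcrb followed at 125, 122 and 121 and was the lowest at 8 h (0.968-fold). The other core protein gene, Uqcrc1, was the highest at 4 h with 1.089-fold (0.985 to 1.203). At 8 h the highest was the Rieske iron-sulfur protein gene Uqcrfs1, at 87.7, 90.5 and 96.1 CPM and 1.095-fold (1.013 to 1.184).

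In complex IV, Cox7a2l gave most nuclear molecules, followed by Cox7c and Cox8a. Cox7a2l encodes a relative of the subunit Cox7a2 that joins complexes III and IV into supercomplexes. C57BL/6 mice are known to carry a shortened form of it. It stood at 479, 472 and 459 CPM, 0.959-fold at 8 h (0.927 to 0.992). Cox7c was at 385, 371 and 382, and Cox8a at 346, 364 and 360, the highest complex IV ratio at 4 h (1.054-fold, 1.013 to 1.096). Cox7a2 had the lowest ratio at 4 h (0.946), and at 8 h the span ran from Cox4i1 at 0.949 to Cox7b at 1.068. The isoforms of other tissues were nearly absent: Cox6b2, known from testis, gave 17, 17 and 20 molecules. The muscle forms Cox7a1 and Cox6a2 gave 3, 13 and 7 and 2, 1 and 1. Cox4i2, known from lung, gave 1, 0 and 1, so no ratio is given for these 4 genes.

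In complex V, Atp5g2 and Atp5a1, which encode subunit c and the catalytic-sector alpha subunit, gave most molecules, with 426, 425 and 431 and 403, 409 and 407 CPM. Atp5g3 stood at 346, 357 and 367 and had the highest 8 h ratio of complex V, 1.063 (1.022 to 1.106). At 4 h the highest was the central stalk gamma subunit gene Atp5c1 at 1.089 (1.017 to 1.166). The lowest subunit ratios were those of Atp5j2 at 4 h (0.952) and Atp5mpl at 8 h (0.953). Of the 16 complex V subunits, 14 were above 1 at 8 h, by at most 1.063-fold, where 4976 of all 10015 genes were. The factor Atp5s lay lower still at 8 h (0.859-fold, 0.635 to 1.159).

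Per cell, the mitochondrial share had a median of 9.80% in saline, 9.76% at 4 h and 9.97% at 8 h, with quartiles of 8.75% and 10.97%, 8.60% and 10.9%, and 8.78% and 11.2%. The nuclear share had medians of 1.05%, 1.05% and 1.06%. The upper tail differed more than the middle: 49 cells of the saline pool held at least 15% mitochondrial molecules, or 0.955% (Clopper-Pearson 95% limits 0.707 and 1.26%). The 4 h pool had 74 such cells, or 1.41% (1.11 and 1.77%), and the 8 h pool 92, or 1.75% (1.42 and 2.15%). These limits cover counting error over the cells of 1 pool each, and do not measure how mice of 1 treatment differ. Cells at or above 25% had been removed beforehand, 15, 20 and 16 per pool. Without the cells at or above 15%, the mitochondrial sum was 0.992-fold at 4 h and 1.014-fold at 8 h.

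Other mitochondrial genes were read from lists. Neither the 77 genes of the mitochondrial ribosome nor the 17 genes that keep and express mitochondrial DNA had a member past 1.2-fold at 4 h. At 8 h Mrps27 (191, 163 and 147 molecules, 0.753-fold, 0.603 to 0.939) was the only ribosomal gene past it. The helicase gene Twnk (138, 140 and 108 molecules, 0.766-fold, 0.59 to 0.992) was the only one of the second list. The most abundant genes of these lists, Mrpl24 and Mrpl33, and Ssbp1 and Tfam, stood between 0.939 and 0.970 at both times. None of 16 citric acid cycle genes, 9 regulators or 11 carriers and pores was past the fold at either time. All genes had 11.2% past it at 4 h and 10.4% at 8 h, a share that in lists of 9 to 17 genes amounts to about 1 or 2 genes, so nothing is read from counts of 0 or 1 there. The most abundant of these were Ogdh and Pdha1, enzymes that feed or run the cycle (1.019 and 0.953 at 4 h), Yy1 and Myc (1.008 and 0.874), and Ucp2 and Slc25a3 (1.005 and 1.038), which encode an inner-membrane carrier and the phosphate carrier.

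Calls were also counted among genes of coenzyme Q synthesis and electron transfer, and among assembly factors outside the members. At 4 h all of them but Coq9 were in genes with under 1000 molecules over the 3 pools. Of 19 in the first list, 4 were higher and 1 lower at 4 h, and 5 were higher and 0 lower at 8 h. Etfb, an electron transfer flavoprotein subunit, had 107, 146 and 145 molecules (1.33-fold at both times). Coq7, a hydroxylase of the coenzyme Q pathway, had 52, 71 and 73 (1.33-fold and 1.37-fold), and Pdss1, which makes its side chain, had 75, 111 and 92 (1.45-fold and 1.2006-fold). Coq9, which works with Coq7, was at 1.2006-fold at 4 h with 353 and 434 molecules. The list's most abundant genes, Etfa and the cytochrome c gene Cycs, were at 1.063 and 0.922 at 4 h. Of 39 assembly factors, 4 were higher and 3 lower at 4 h, and 3 were higher and 0 lower at 8 h. Acad9, a complex I assembly factor, had 112, 146 and 152 molecules (1.27-fold and 1.33-fold), and Sco1, a copper chaperone of complex IV, 88, 116 and 117 (1.29-fold and 1.301-fold). Ecsit reached 1.3003-fold at 8 h and Sdhaf3 1.56-fold at 4 h. The abundant factors Cox20 and Coa5 were at 0.968 and 1.002 at 4 h. At 4 h these calls made up 26.3% of the first list and 17.9% of the second, beside 11.2% of all genes. At 8 h they made up 26.3% and 7.69%, beside 10.4%. Of the 10015 genes, 5868 had at least 1000 molecules, and 1.89% of these were past the fold at 4 h and 1.04% at 8 h. The share of all genes is therefore lower than that of genes with under 1000 molecules. A share at like depth was not computed, so no excess is read from these 2 lists.

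The second question was where in the T cell compartment the members are high or low. Subsets came from clusters made without the members, and were named from marker genes. Because the clusters were drawn from the same cells, the values are descriptive. Pools are given in the order saline, 4 h and 8 h. CD4 naive-like cells, the most numerous subset with 5966 cells, held 9.92%, 10.0% and 10.1% mitochondrial molecules and 1.03%, 1.04% and 1.05% nuclear ones, and served as the reference. CD8 naive-like cells held 10.2%, 10.2% and 10.4% and 1.079%, 1.074% and 1.085%. Shares in the interferon-response cells were 9.47%, 9.25% and 9.72% and 1.03%, 1.05% and 1.03%.

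Cycling cells, marked by Mki67 and Top2a, stood farthest from the rest. Their 121 cells held 7.77%, 7.61% and 7.97% mitochondrial molecules, 0.759 to 0.788 times the reference, and 1.77%, 1.69% and 1.72% nuclear ones, 1.63 to 1.71 times the reference. Mitochondrial molecules outnumbered nuclear ones 4.52-fold in them, against 9.64-fold in CD4 naive-like cells. In absolute terms a cycling cell held more of both, 789 mitochondrial and 175 nuclear molecules, against 239 and 24.8 in a CD4 naive-like cell.

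**Figure D3:**
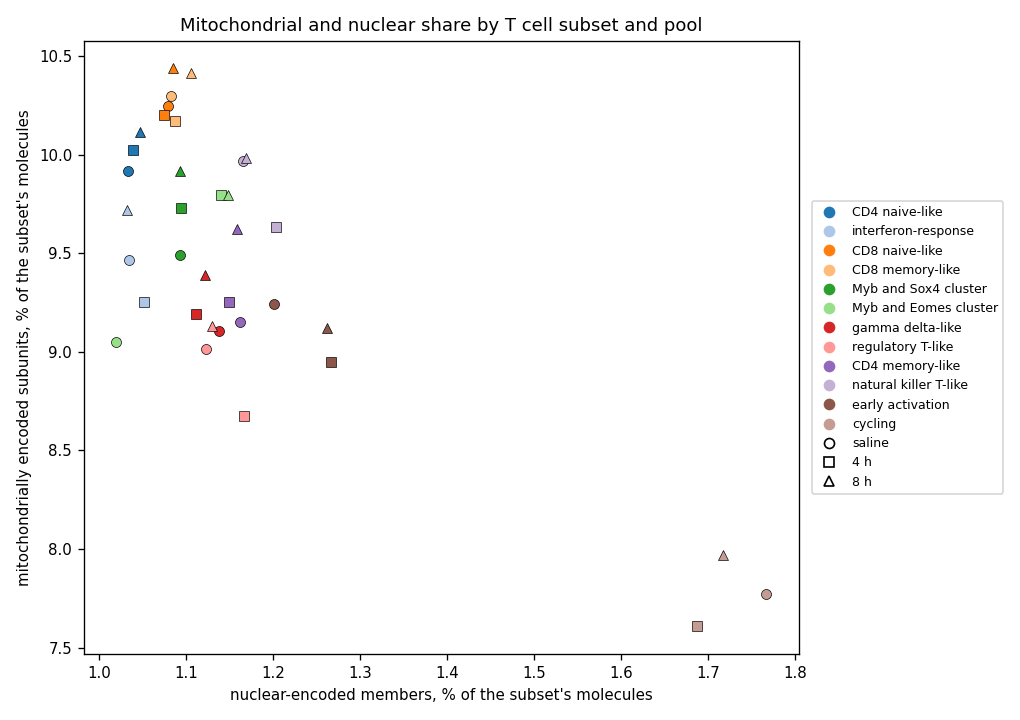
Share of molecules from the 90 nuclear genes (x axis, %) and from the 13 mitochondrial genes (y axis, %) in each T cell subset. Colours are subsets and symbols the 3 pools. Cycling cells lie alone at 1.69 to 1.77% nuclear and 7.61 to 7.97% mitochondrial, and early activation cells are next along the nuclear axis.

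A subunit was counted as higher or lower in a subset when it was past 1.2-fold against CD4 naive-like cells in all 3 pools. Of 52 nuclear subunits with enough molecules, 39 were higher in cycling cells, where 22.1% of 2205 genes were, and 1 was lower, where 36.4% of genes were. Of 12 mitochondrial genes, 8 were lower. By complex, 16 of 16 subunits of complex V, 10 of 11 of complex IV, 8 of 17 of complex I, 3 of 5 of complex III and 2 of 3 of complex II were higher.

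Enough molecules meant at least 100 expected in the subset from a gene's mean over all T cells, so some subunits with higher ratios were not counted. Among the 52 counted, the largest ratio was that of Cox5a, a complex IV subunit, at 267, 243 and 268 CPM in cycling cells against 87.7, 92.9 and 97.2 in CD4 naive-like cells (2.79-fold). Sdhd followed at 2.69-fold and Cox5b at 2.66-fold. All 3 pools of cycling cells lay above all 3 reference pools for Cox5a. Uqcrh and Sdha, in contrast, were at 1.101-fold and 1.014-fold, so ratios differed within a complex. Of the subunits not counted, Ndufb6, an accessory subunit of complex I, was at 3.15-fold (3.64, 2.78 and 3.16 in the pools). The 12 counted mitochondrial genes spanned 0.637 for mt-Nd2 to 0.949 for mt-Nd3. The rare mt-Nd6, not counted, was at 1.39-fold (1.74, 1.36 and 1.07).

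Cox7a2l was the only 1 of the 52 counted nuclear subunits that was lower in cycling cells. It stood at 239, 262 and 258 CPM against 492, 475 and 483 in the reference (0.525-fold). Its relative Cox7a2 was at 228, 193 and 220 against 86.3, 94.9 and 94.96 (2.30-fold). Of the molecules of both genes, Cox7a2 made up 45.5% in cycling cells (Clopper-Pearson 41.3 to 49.6%) and 15.97% in CD4 naive-like cells (15.2 to 16.8%).

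Depth moved with these differences. Cycling cells had a median of 9117 molecules, against 2346 in CD4 naive-like cells. The 124 T cells outside the cycling cluster with at least its lower quartile of molecules, 6534, had a median of 7427. They came mostly from the Myb and Eomes, early activation, CD8 memory-like and regulatory T-like clusters, and held 9.43% mitochondrial and 1.44% nuclear molecules. Per cell these were 752 mitochondrial and 115 nuclear molecules, against 789 and 175 in a cycling cell. Against them, 10 of 52 nuclear subunits were still higher in cycling cells in all 3 pools, where 9.02% of genes were. These were Sdhd, Cox5a, Cox5b, Cox6a1, Cox7a2, Cox8a, Atp5j2, Atp5k, Atp5o and Ndufa4. No nuclear subunit was lower, where 17.4% of genes were, and Cox7a2l was at 0.73-fold. Of the mitochondrial genes, mt-Nd2, mt-Nd4, mt-Nd4l, mt-Nd5 and mt-Atp8 were lower. The share of Cox7a2 in the pair was 26.8% in those deep cells (22.9 to 31.1%). The number of nuclear subunits called higher thus depended on the cells taken as reference. Called multiplets, which hold RNA of cells from more than 1 pool, had a median of 4473 molecules with 10.1% mitochondrial and 1.1001% nuclear. Doublets within a pool were not called, and their part in these values was not tested.

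**Figure D4:**
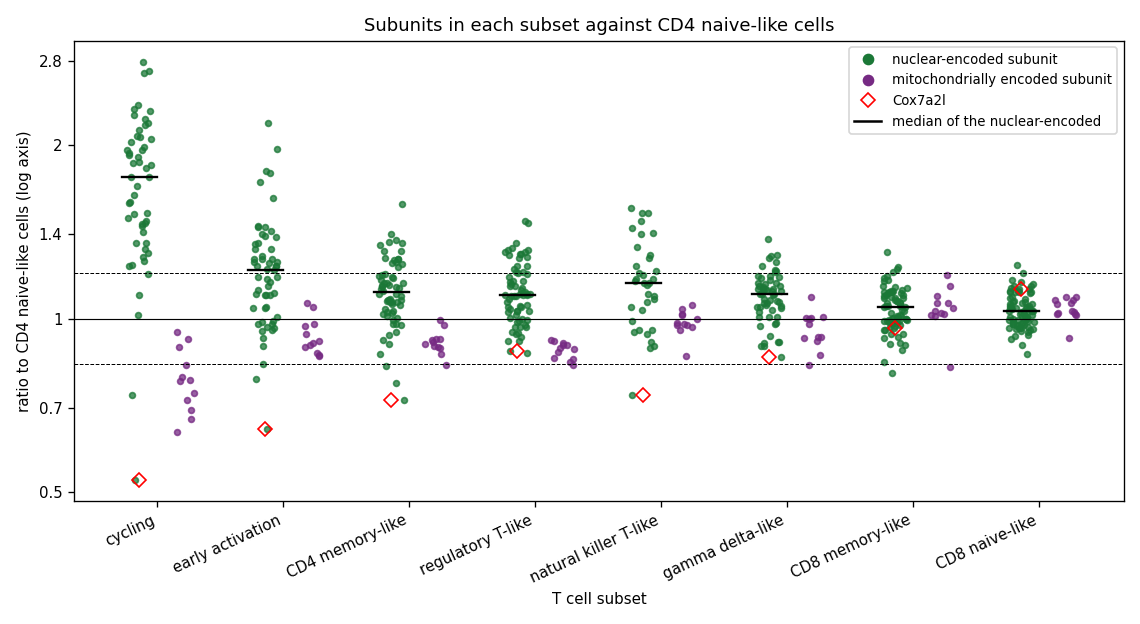
Ratio of each subunit to CD4 naive-like cells (log axis, 3 pools summed) in 8 subsets, for subunits with enough molecules. Green points are nuclear subunits, purple points mitochondrial ones, black bars the median of the nuclear ones, and red diamonds Cox7a2l. Nuclear subunits lie highest in cycling cells, and the diamond is at or near the bottom in cycling, early activation, CD4 memory-like and natural killer T-like cells.

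Early activation cells, marked by Egr and Nr4a genes, held 9.25%, 8.95% and 9.12% mitochondrial and 1.2005%, 1.27% and 1.26% nuclear molecules. Setting aside neutrophil and plasma cells had reduced this cluster from 533 cells (177, 174 and 182 in the pools) to 506 (171, 157 and 178). Cells with fewer than 10 molecules of the markers used for that step stayed, and their part in these values was not tested. The nuclear share was 1.16 to 1.22 times the reference at a median of 2886.5 molecules per cell. Of 57 nuclear subunits, 14 were higher, where 16.2% of genes were, and Cox7a2l was the 1 that was lower (0.643-fold), where 16.4% of genes were. Among those 57, Atp5g1 had the largest ratio, at 301, 340 and 327 CPM against 141, 148 and 155 (2.18-fold). Atp5g3 was at 1.62-fold and Atp5g2 at 1.008-fold, so the 3 subunit c genes, whose promoters are printed above, differed in their ratios. Uqcrq, a small subunit of complex III, was at 193, 208 and 198 against 96.4, 100 and 108 (1.97-fold). The assembly factor Ndufaf4 was at 130, 147 and 104 against 57.0, 64.0 and 67.8 (2.01-fold). Among the counted subunits, Ndufab1, the mitochondrial acyl carrier protein, was at 1.80-fold and Ndufa12 at 1.79-fold. Of those not counted, Ndufa11 was at 1.88-fold and Ndufb6 at 1.82-fold.

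Within the subunit c family, Atp5g1, Atp5g2 and Atp5g3 gave 17.7%, 44.8% and 37.4% of molecules over all T cells. Molecule counts are not per length, so the shares are read between subsets and not between genes. In early activation cells Atp5g1 made up 25.7% (23.8 to 27.6%), with 25%, 26.1% and 25.9% in the pools. In CD4 naive-like cells it made up 16.9% (16.3 to 17.6%), with 16.1%, 17.3% and 17.4%. Atp5g2 made up 31.6% in early activation cells and 45.1% in CD4 naive-like cells. In cycling cells Atp5g1 made up 16.3% (14.8 to 17.9995%), an interval that contains the CD4 naive-like share, although Atp5g1 itself was 1.86-fold higher in them.

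**Figure D5:**
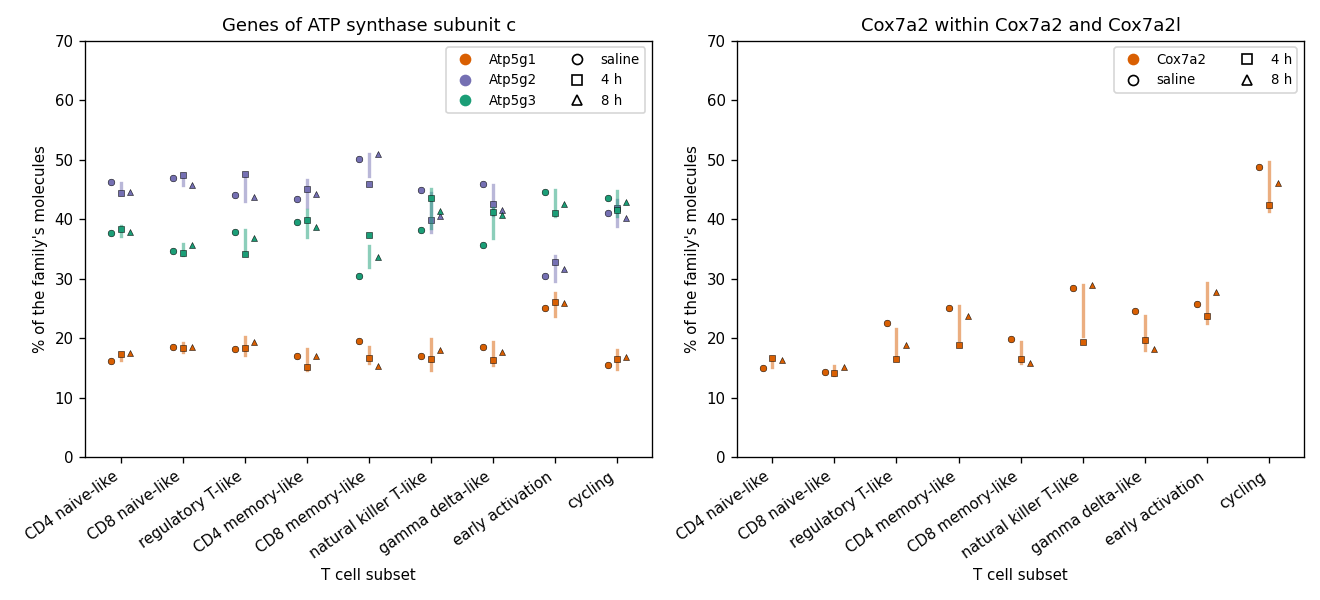
Share of the family's molecules (%) by T cell subset for the 3 subunit c genes (left) and for Cox7a2 among Cox7a2 and Cox7a2l (right). Symbols are the pools and pale bars the Clopper-Pearson 95% interval of the 3 pools together. Early activation cells have the highest Atp5g1 and the lowest Atp5g2 share, and Cox7a2 reaches 45.5% in cycling cells.

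Regulatory T-like cells, marked by Foxp3 and Il2ra, had the lowest mitochondrial share of the 3 pools together after the cycling cells, with 9.01%, 8.67% and 9.13%, or 0.865 to 0.909 times the reference. All 12 mitochondrial genes with enough molecules were below the reference in all 3 pools, from 0.832 for mt-Atp8 to 0.919 for mt-Co1. Of all 3949 genes with enough molecules, 1042 were. In cycling and in CD4 memory-like cells 11 of 12 were below as well, where 1121 of 2205 and 883 of 3305 genes were. The nuclear share of regulatory T-like cells was 1.12%, 1.17% and 1.13%, or 1.079 to 1.123 times the reference. Of 69 nuclear subunits 9 were higher, where 12.7% of genes were. Among those 69, Uqcr11, a small complex III subunit, had the largest ratio (1.48-fold). Ndufb6 was at 1.46-fold and Cox6c at 1.33-fold, while the highest complex IV subunit was at 1.35-fold. Ndufb2, not counted, was at 1.504-fold. Median depth was close to that of the reference, 2238 against 2346 molecules. Cells picked by a Foxp3 molecule alone held 8.76% mitochondrial and 1.17% nuclear molecules.

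In CD4 memory-like cells the mitochondrial share was 0.923 to 0.952 times and the nuclear share 1.11 to 1.12 times the reference. Of 64 nuclear subunits 8 were higher, where 14.7% of genes were, led by Cox5b (1.58-fold), while Ndufb8, not counted, was at 1.75-fold, and Cox7a2l was the 1 that was lower (0.722-fold), where 11.3% of genes were. In natural killer T-like cells 6 of 35 were higher, where 12.5% of genes were, led by Ndufv3 (1.55-fold), Uqcrb (1.53-fold) and Cox8a (1.52-fold), and Cox7a2l was again the 1 that was lower (0.739-fold), where 16.9% of genes were. Cox8a, a small complex IV subunit, was also past the fold in all 3 pools in CD8 naive-like (1.24-fold), CD8 memory-like (1.31-fold) and gamma delta-like cells (1.37-fold), where 6.43%, 7.37% and 10.9% of genes were higher. In CD8 naive-like and CD8 memory-like cells it was the only counted nuclear subunit to be so. Cox7a2l ran from 0.525-fold in cycling cells to 1.13-fold in CD8 naive-like cells.

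The mitochondrial genes did not shift together between subsets. In CD8 memory-like cells mt-Cytb was at 0.826-fold while mt-Nd2 was at 1.19-fold and mt-Nd1 at 1.14-fold, and mt-Co1 was at 1.013-fold. The mt-Cytb ratio was 0.842, 0.804 and 0.830 in the pools and that of mt-Nd2 was 1.180, 1.194 and 1.203, so the pools did not overlap. The same order held in CD8 naive-like cells, with mt-Cytb at 0.926 and mt-Nd2 at 1.09. In gamma delta-like cells mt-Cytb (0.830) and mt-Co1 (0.864) were low and mt-Nd3 stood at 1.09. In early activation cells mt-Co1 was at 0.860 and mt-Nd1 at 1.06.

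Within subsets, the drug groups stayed near saline as well. At 8 h the mitochondrial ratio ran from 0.987 in early activation cells to 1.082 in the Myb and Eomes cluster, and the nuclear ratio from 0.972 in cycling cells to 1.13 in that cluster. The Myb and Eomes cluster, with 47, 62 and 62 cells, held 9.05%, 9.80% and 9.80% mitochondrial and 1.02%, 1.14% and 1.15% nuclear molecules, so its saline pool was low for both. At 4 h regulatory T-like cells had the lowest mitochondrial ratio (0.962) and a nuclear ratio of 1.04. In CD4 naive-like cells the ratios were 1.011 and 1.020 for the mitochondrial and 1.006 and 1.014 for the nuclear genes at 4 h and 8 h. B cell-like cells, outside the T cells, held 10.96% mitochondrial and 0.940% nuclear molecules, and myeloid-like cells 6.02% and 1.077%.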

How the data were processed

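Whole-transcriptome single-cell libraries of 3 sample-tagged spleen pools, 1 per treatment, came from 1 capture, and the tag library assigned cells to pools. The deposited table holds molecule counts per cell and gene, corrected by the authors' pipeline with its recursive substitution error correction, per the file headers. It was made with BD WTA Multiplex Rhapsody Analysis Pipeline 1.9.1 on GRCm38 with GENCODE M19, per the file headers. No aligner was named, so that step counts as not given in the sources used here. Gene positions were taken from GENCODE M21 on the same build, where 102 of 103 members matched.

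Of 17299 putative cells, 1063 multiplets (6.14%), 60 undetermined cells and 2 with another tag were left out. Cells with under 200 genes or at least 25% mitochondrial molecules were removed, and 23 neutrophil and 6 plasma cells were set aside by their markers. Each cell of the capture has 1 tag call, so no barcode could fall in more than 1 pool. Doublets within a pool were not called and free RNA was not corrected. Cells were clustered with scanpy 1.11.5 (2000 variable genes without the members, 30 components, 15 neighbours, Leiden resolution 1.0), giving 17 clusters, and clusters were named from marker genes. Molecules were summed per pool and scaled to 1000000 molecules per pool (CPM). Ratios carry exact conditional-binomial 95% intervals, levels exact Poisson ones and shares Clopper-Pearson ones (scipy 1.17.1). All cover counting error only. In simulated counts of 10015 genes with 200 changed, the interval held the true ratio in 95.2% (4 h) and 95.5% (8 h) of genes. Those counts were drawn as independent Poisson counts, which the interval assumes. They check the calculation only, and hold no variation between cells or mice. With 1 pool per treatment, no test between treatments was run.

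Named genes are all mitochondrial members, the 3 nuclear members of each complex with most molecules, those with the lowest and highest ratio, those past 1.2-fold, the tissue isoforms, and in other lists the 2 most abundant genes and those past the fold, at most 6 a list. Members, lists and rules were chosen with earlier results of these data known. Genes named in subsets, the minimum used there (100 molecules from the mean over all T cells), the call in all 3 pools, the reference of deep cells and the removal of other lineages were chosen after seeing these data. Alternatives covered TMM factors (edgeR 4.0.16), raw molecules, equal weight per cell, gene minimums, the mitochondrial limit, the mix of clusters and gates on single genes.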

Additional observations from a re-analysis of the deposited data

How the results depend on the processing

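No paired analysis was possible because each treatment was 1 pool, and for the same reason no replicate could be left out. Under TMM factors (edgeR) the 4 h ratios to saline were 0.980 for the mitochondrial sum and 0.997 for the nuclear sum. By complex they were 0.973 (I), 0.971 (III), 0.984 (IV) and 0.993 (V) for the mitochondrial genes. For the nuclear genes they were 1.002 (I), 0.995 (II), 0.994 (III), 0.992 (IV) and 0.998 (V). The median log2 ratio of the nuclear subunits was -0.014. In cells under 15% mitochondrial molecules the mitochondrial sum was 0.992 at 4 h and 1.014 at 8 h, and with the mix of clusters held at the mean of the pools it was 0.998 and 1.020. Members past 1.2-fold at 4 h numbered 0 with raw molecules, 2 of 101 at a minimum of 10 molecules (all genes 24.6%) and 0 of 90 at 1000 (all genes 1.89%). At 8 h they numbered 3 with each cell weighted equally, 2 with raw molecules, 2 of 101 at 10 molecules (all genes 24%) and 0 of 90 at 1000 (all genes 1.04%). No share of all genes is given for raw molecules or equal weights, so those counts are not read as many or few.

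Mitochondrial ratios within subsets moved as follows. With TMM at 4 h they were 0.984 in CD8 naive-like cells, 1.133 in the Myb and Eomes cluster and 0.993 in interferon-response cells. With TMM at 8 h they were 1.024 in CD4 naive-like cells, 1.140 in the Myb and Eomes cluster, 1.048 in gamma delta-like, 1.028 in natural killer T-like and 1.029 in regulatory T-like cells. In cells under 15% they were 1.005 in CD4 naive-like cells, 1.006 in the Myb and Sox4 cluster and 0.946 in natural killer T-like cells at 4 h, and 1.016 in CD4 naive-like and 0.9997 in cycling cells at 8 h. With each cell weighted equally they were 1.033 in CD4 memory-like cells, 1.061 in the Myb and Sox4 cluster and 0.972 in early activation cells at 8 h. Cells gated on Cd4 held 9.77% mitochondrial and 1.081% nuclear molecules (mitochondrial ratio 0.999 at 4 h), cells gated on Cd8a or Cd8b1 10.1% and 1.11% (nuclear ratio 1.0095 at 4 h), and the Foxp3 gate 1.17% nuclear. Against deep cells, a reference added after seeing the data, 10 of 52 nuclear subunits were higher in cycling cells (all genes 9.02%). Apart from the scaling, the cause of these shifts was not tested. Ratios within subsets with no mitochondrial limit were not run, since cells over the limit have no cluster. No fold is resolved for genes near 3 molecules, the most that a count of 0 allows.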
